A study of Mus musculus with 46 samples.

Results

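The genes described here are the 6 mouse genes for receptors of the constant (Fc) part of immunoglobulin G and their closest relatives: Fcgr1, Fcgr2b, Fcgr3, Fcgr4, Fcrls and Fcgrt. They were taken by symbol from 3 deposited expression tables, and they make up 6 of the 21231 genes listed in at least 1 of them. Both tables of sorted cells list all 6, and the table of subventricular zone (SVZ) tissue lists 5; Fcgr4 in SVZ tissue was not analysed here. The study depleted microglia, the resident macrophages of the brain, with PLX3397, an inhibitor of the receptor kinase CSF1R mixed into chow at 600 ppm, and let cells return after the drug was withdrawn. All 46 libraries came from C57BL/6 mice, given as males in the study's methods and as 2 months old in its figure legends, while the methods give a slightly lower age as the default. SVZ tissue was dissected from vehicle-fed controls, after 14 days of PLX3397, and after 14 days of PLX3397 with 5 days of recovery, with 5 libraries each. CD11b+CD45int myeloid cells were sorted from whole hemispheres of vehicle-fed mice (control microglia) and of mice given PLX3397 for 14 days with 28 days of recovery, whose brains are refilled from white matter areas (WM repopulated cells). Both kinds of mice were studied without lipopolysaccharide (LPS, a bacterial cell wall component; 0 hr) and at 6 or 24 hr after 0.33 mg/kg LPS into the peritoneum, with 3, 5 and 4 control libraries and 4, 4 and 4 WM libraries at 0, 6 and 24 hr. A separate table holds 4 control libraries and 3 from mice given PLX3397 for 7 days with 28 days of recovery, where surviving microglia refill the whole brain (GLOBAL repopulation). The study counts its replicates as mice, and the labels do not tie single libraries to mice.

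Fc receptors let a phagocyte read the antibody that coats a target. In the mouse, Fcgr1, Fcgr3 and Fcgr4 encode activating receptors that signal through the shared partner chain made by Fcer1g, whereas Fcgr2b encodes the inhibitory receptor, which recruits phosphatases. Fcrls is related in sequence to the Fc receptors and is a marker of mouse microglia, and Fcgrt encodes the heavy chain of the neonatal Fc receptor, which pairs with beta-2-microglobulin (B2m) and returns immunoglobulin G and albumin from endosomes to the cell surface. Fcgr2b and Fcgr3 share long stretches of near-identical coding sequence, so short reads may be split between them and their separate levels are uncertain.

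The promoter stretches of the 3 activating receptors are shown because all 3 rose at 6 hr after LPS in both cell origins. Fcgr2b rose as well, and its window is not printed because 153 of its 200 bases lie in annotated exons. RefSeq, on build GRCm38.p6, places Fcgr4, Fcgr2b and Fcgr3 on chromosome 1, at chr1:171018926-171029761, chr1:170960558-170976071 and chr1:171051169-171065915, which is 1 cluster. Fcgr1 lies at chr3:96282909-96293969, Fcrls at chr3:87250736-87263765 and Fcgrt at chr7:45092993-45103822. All 6 genes had a RefSeq promoter window. Each stretch below holds the 200 bases before a RefSeq start site, read 5′ to 3′ on the gene's strand, with Fcgr1 from chr3:96293970-96294169 (minus strand), Fcgr3 from chr1:171059404-171059603 (minus strand) and Fcgr4 from chr1:171018726-171018925 (plus strand). Capitals mark matches on either strand to GAGGAA, a core of the sites of the myeloid factor PU.1, to TTCNNNGAA, the pattern of gamma-activated sites, and to a pair of GAAA copies with any 2 bases between them, a pattern of interferon-stimulated response elements.
Fcgr1: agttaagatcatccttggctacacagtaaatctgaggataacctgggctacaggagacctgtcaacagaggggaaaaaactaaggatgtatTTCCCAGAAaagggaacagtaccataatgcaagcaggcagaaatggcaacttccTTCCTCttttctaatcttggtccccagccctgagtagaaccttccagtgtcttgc
Fcgr3: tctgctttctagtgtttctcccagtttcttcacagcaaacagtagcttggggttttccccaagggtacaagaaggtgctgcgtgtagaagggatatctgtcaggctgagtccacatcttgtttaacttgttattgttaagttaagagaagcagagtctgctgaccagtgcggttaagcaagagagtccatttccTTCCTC
Fcgr4: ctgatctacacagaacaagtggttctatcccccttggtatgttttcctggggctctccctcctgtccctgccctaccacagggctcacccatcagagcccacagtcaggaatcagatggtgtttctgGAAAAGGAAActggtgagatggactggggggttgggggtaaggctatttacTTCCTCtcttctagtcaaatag
GAGGAA or its reverse complement TTCCTC was found in all 3 stretches, starting 55 bases before the start of Fcgr1, 6 before that of Fcgr3 and 22 before that of Fcgr4. A match also lies in the same window of Fcrls, and none was found in those of Fcgr2b and Fcgrt. Among all 32851 windows of this length in the table, 19.03% held this pattern. The gamma-activated pattern was present before Fcgr1 only among the 6 genes, 109 bases upstream, and in 5.49% of all windows. The response-element pattern was present before Fcgr4 only, 73 bases upstream, and in 2.27% of all windows. The start used for Fcgr3 lies inside its annotated span, since another of its transcripts starts further upstream. RefSeq also lists a nearby start of Fcgr3 that puts the same match 15 bases before it. In that window 9 of the 200 bases lie in annotated exons. These matches describe letters in the reference and say nothing about binding.

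The libraries held 4574000 to 10609000 reads in the SVZ table, 5238000 to 10380000 in the WM table and 2206000 to 5374000 in the GLOBAL table, as recovered from the FPKM values (fragments scaled to transcript length and library size). In the WM table, control replicate 2 at 6 hr and control replicate 4 at 24 hr agreed least with their own groups, with a median correlation of log2(FPKM + 1) over genes of 0.939 and 0.949 against 0.964 to 0.984 for the others. SVZ control replicate 1 carried 21648 FPKM of 5 choroid plexus markers, summed, against 14.5 to 129 in the other 14 SVZ libraries. The sorted libraries carried the 9 microglial markers at 6080 to 23527 FPKM, summed, but also 8 neutrophil markers at 432 to 22615 FPKM and 7 monocyte markers at 98.2 to 3435 FPKM. Neutrophils and monocytes express several of the Fc receptors, so the sums of these lists are given again beside the results they move with.

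LPS changed most of the 6 genes in sorted cells, and the change was in the same direction in both cell origins for every gene that passed the test in both. In control microglia, 5 of 6 genes passed at 6 hr against 0 hr (limma, adjusted p under 0.05 over all 12684 genes tested), where 42.5% of all genes did, and 4 of 6 passed at 24 hr, where 21.3% did. In WM repopulated cells, 5 of 6 passed at 6 hr, with 38.8% of all genes, and all 6 passed at 24 hr, with 18.8%. LPS moved a large share of the transcriptome, so the members' counts are to be read against these shares. The 4 Fc gamma receptor genes Fcgr1, Fcgr3, Fcgr4 and Fcgr2b were higher at 6 hr in both origins, and Fcgrt was lower.

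Fcgr4 had the largest response of the 6 genes. At 0 hr it was listed at 21.1, 22.9 and 22.4 FPKM in control microglia and at 34.6, 41.5, 39.4 and 46.6 FPKM in WM repopulated cells. At 6 hr the 5 control libraries lay at 204, 176, 145, 248 and 219 FPKM, and the 4 WM libraries at 308, 269, 224 and 242 FPKM. At 24 hr the values were 202, 231, 190 and 183 FPKM in controls and 377, 356, 341 and 255 FPKM in WM cells. Every LPS library lay far above every library of its own origin at 0 hr. The difference in log2(FPKM + 1) at 6 hr was 3.09 ± 0.16 (SE) in controls, an 8.50-fold rise with adjusted p = 1.63e-12 by limma, and 2.65 ± 0.15 in WM cells, a 6.29-fold rise with adjusted p = 1.18e-11. At 24 hr the rise was 8.72-fold in controls (log2 difference 3.12 ± 0.16, limma adjusted p = 3.37e-12) and 7.98-fold in WM cells (2.997 ± 0.15, adjusted p = 1.54e-12). Between 6 and 24 hr Fcgr4 did not pass the test in either origin, with differences of 0.04 (95% interval -0.26 to 0.34) in controls and 0.34 (0.03 to 0.66) in WM cells. Without WM replicate 4 at 24 hr the difference in WM cells was 0.46 and passed (limma adjusted p = 0.0486).

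**Figure D1:**
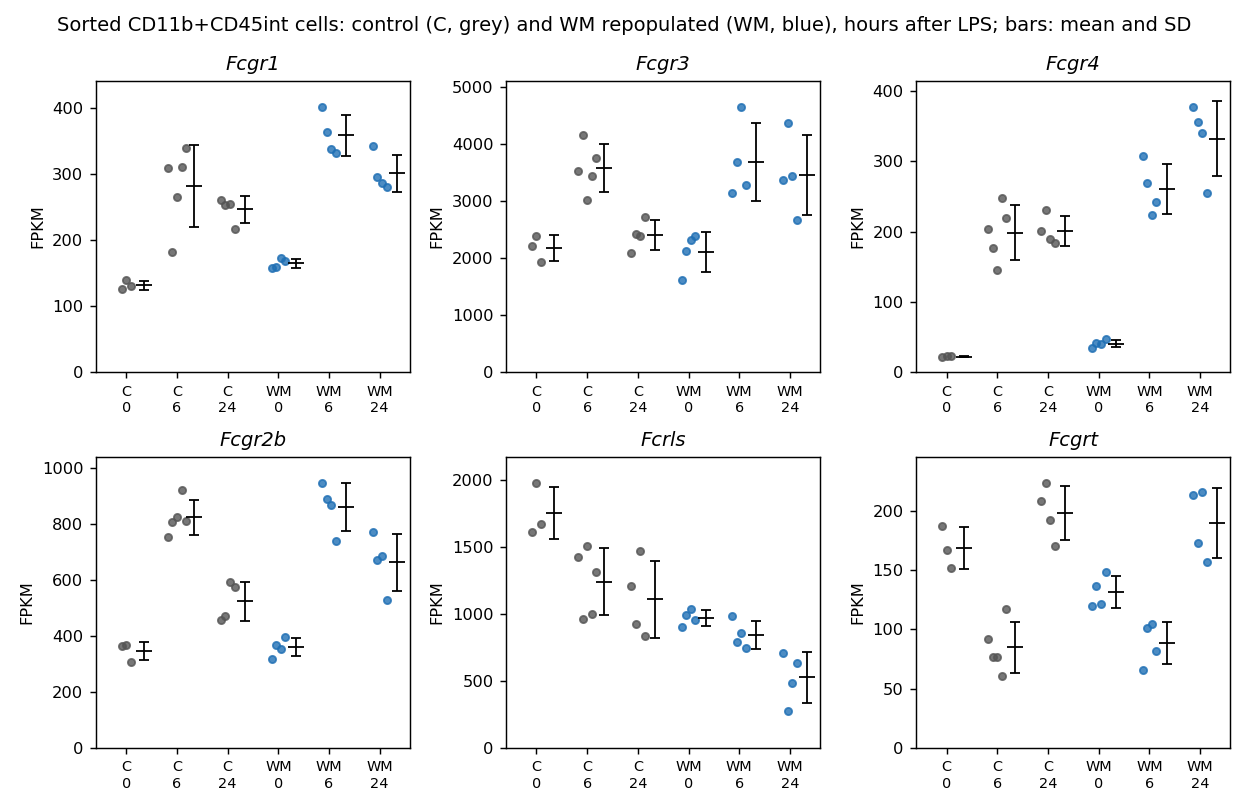
FPKM of each gene (vertical axis, linear, from 0) in control microglia (grey) and WM repopulated cells (blue) at 0, 6 and 24 hr after LPS; each point is 1 library, and the bars give the mean and SD of 3 to 5 libraries. Fcgr4 rises from a mean of 22.1 FPKM in controls at 0 hr to 199 at 6 hr, while Fcgrt falls to a mean of 84.8 FPKM at 6 hr and is at 199 at 24 hr.

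Fcgr1, the high-affinity activating receptor, was higher after LPS at both times and in both origins. Control microglia held it at 125, 139 and 131 FPKM at 0 hr, at 310, 182, 266, 312 and 340 FPKM at 6 hr, and at 261, 254, 255 and 217 FPKM at 24 hr. WM cells held it at 158, 159, 173 and 169 FPKM at 0 hr, at 402, 364, 339 and 333 FPKM at 6 hr, and at 343, 296, 287 and 281 FPKM at 24 hr. The lowest value at 6 hr was that of control replicate 2, the library that agreed least with its group, and no LPS library overlapped the 0 hr libraries of its origin. The rise at 6 hr was 2.09-fold in controls (log2 difference 1.06 ± 0.15, limma adjusted p = 3.39e-06) and 2.17-fold in WM cells (1.12 ± 0.14, adjusted p = 1.29e-06). At 24 hr it was 1.86-fold in controls (adjusted p = 1.81e-04) and 1.82-fold in WM cells (adjusted p = 1.28e-04) in the same fit. Between 6 and 24 hr it did not pass, but without control replicate 2 at 6 hr it fell by 0.31 in controls (limma adjusted p = 0.0273).

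Fcgr3, the low-affinity activating receptor, was the most abundant of the 6 genes per length in all 6 groups of this table. In controls it was listed at 2206, 2382 and 1931 FPKM at 0 hr, at 3530, 4169, 3029, 3435 and 3764 FPKM at 6 hr, and at 2086, 2429, 2384 and 2717 FPKM at 24 hr. In WM cells it was listed at 1612, 2118, 2325 and 2383 FPKM at 0 hr, at 3140, 3689, 4645 and 3278 FPKM at 6 hr, and at 3380, 4365, 3444 and 2661 FPKM at 24 hr. At 6 hr both origins stood above their 0 hr libraries without overlap. At 24 hr the controls overlapped their 0 hr libraries, and the WM libraries did not. At 6 hr Fcgr3 rose 1.65-fold in controls (log2 difference 0.72 ± 0.17, limma adjusted p = 0.00156) and 1.75-fold in WM cells (0.81 ± 0.17, adjusted p = 4.50e-04). At 24 hr it stood at a difference of 0.14 ± 0.18 in controls (adjusted p = 0.613) and was 1.64-fold higher in WM cells (0.71 ± 0.17, adjusted p = 0.00382). From 6 to 24 hr it fell by 0.57 on the log2 scale in controls (limma adjusted p = 0.00798), and in WM cells the difference was -0.10 (95% interval -0.44 to 0.25).

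Fcgr2b, the inhibitory receptor, rose with the activating ones and came down by 24 hr. In controls it was listed at 362, 368 and 307 FPKM at 0 hr, at 753, 806, 822, 922 and 809 FPKM at 6 hr, and at 456, 470, 590 and 576 FPKM at 24 hr. In WM cells it was listed at 318, 368, 354 and 395 FPKM at 0 hr, at 945, 888, 868 and 739 FPKM at 6 hr, and at 771, 670, 683 and 526 FPKM at 24 hr. The 6 hr and the 24 hr libraries of both origins were all above those at 0 hr. The rise at 6 hr was 2.38-fold in controls (log2 difference 1.25 ± 0.13, limma adjusted p = 7.68e-08) and 2.39-fold in WM cells (1.26 ± 0.13, adjusted p = 5.16e-08). At 24 hr it was 1.51-fold in controls (adjusted p = 0.00354) and 1.83-fold in WM cells (adjusted p = 3.43e-05). Between 24 and 6 hr 3 of the 6 genes passed in controls, where 28.3% of all genes did, and 3 in WM cells, where 15.7% did. Among them, Fcgr2b fell by 0.66 on the log2 scale in controls (limma adjusted p = 2.82e-04) and by 0.38 in WM cells (adjusted p = 0.0449). The fall in WM cells was lost when WM replicates 1, 2 or 3 at 6 hr or 2, 3 or 4 at 24 hr were left out, where the limma adjusted p reached 0.169, and the groups overlapped. It was also lost with no filter on low values, with no trend, with a replicate block and with only the groups compared (adjusted p = 0.0566, 0.0606, 0.0740 and 0.0795 by limma), and with quantile normalisation it was 0.58. GENCODE M21 annotates an antisense gene, Gm38204, across 155 bases of the exons of Fcgr2b, and whether reads were counted by strand is not given in the sources used here.

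Fcrls, the microglial marker of the family, was at its highest without LPS and without depletion. It was listed at 1613, 1978 and 1671 FPKM in controls at 0 hr, at 1429, 962, 1510, 998 and 1311 FPKM at 6 hr, and at 1210, 928, 1472 and 836 FPKM at 24 hr. In WM cells it was listed at 901, 990, 1034 and 956 FPKM at 0 hr, at 988, 791, 855 and 747 FPKM at 6 hr, and at 710, 277, 484 and 633 FPKM at 24 hr. The control libraries at 0 hr lay above all other libraries of this table, and the WM libraries at 24 hr lay below all others. At 24 hr against 0 hr Fcrls fell by 0.97 on the log2 scale in WM cells (SE 0.22, limma adjusted p = 0.00345). In controls the fall was 0.69 (limma adjusted p = 0.0441); that call was lost without control replicates 1, 2 or 3 at 0 hr or 1, 2 or 4 at 24 hr, with adjusted p up to 0.152, and with no filter, quantile normalisation, no trend, a replicate block or control replicate 2 at 6 hr and 4 at 24 hr left out (0.0588, 0.115, 0.0514, 0.0542 and 0.0978). At 6 hr Fcrls did not pass, with differences of -0.52 (95% interval -0.99 to -0.04) in controls and -0.20 (-0.67 to 0.26) in WM cells. In controls it passed with only the groups compared (limma adjusted p = 0.0473). It also passed there without control replicate 3 at 6 hr, at -0.59 (adjusted p = 0.0486 by limma). From 6 to 24 hr it fell by 0.76 in WM cells (limma adjusted p = 0.0213), a call lost without WM replicate 1 at 6 hr or WM replicates 2 or 3 at 24 hr, with adjusted p up to 0.0937. Without WM replicate 2 at 24 hr the fall was 0.48.

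Fcgrt, the neonatal Fc receptor chain, moved against the 4 Fc gamma receptor genes at 6 hr. It was listed at 188, 167 and 152 FPKM in controls at 0 hr, at 92.2, 76.5, 76.9, 61.0 and 117 FPKM at 6 hr, and at 208, 224, 192 and 170 FPKM at 24 hr. In WM cells it was listed at 120, 136, 121 and 149 FPKM at 0 hr, at 65.9, 101, 105 and 82.1 FPKM at 6 hr, and at 214, 173, 216 and 157 FPKM at 24 hr. The 6 hr libraries of both origins lay below all libraries at 0 and 24 hr of the same origin. At 6 hr Fcgrt fell by 1.01 on the log2 scale in controls (SE 0.18, limma adjusted p = 6.17e-05) and by 0.59 in WM cells (SE 0.17, adjusted p = 0.00878). From 6 to 24 hr it rose 2.37-fold in controls (limma adjusted p = 5.43e-06) and 2.15-fold in WM cells (adjusted p = 9.60e-05). At 24 hr against 0 hr the difference was 0.23 (95% interval -0.15 to 0.61) in controls, and in WM cells Fcgrt was 1.43-fold higher (limma adjusted p = 0.0360), a call lost without WM replicates 1, 2 or 3 at 0 hr or 1 or 3 at 24 hr, with adjusted p up to 0.111, and with quantile normalisation (0.0734).

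**Figure D2:**
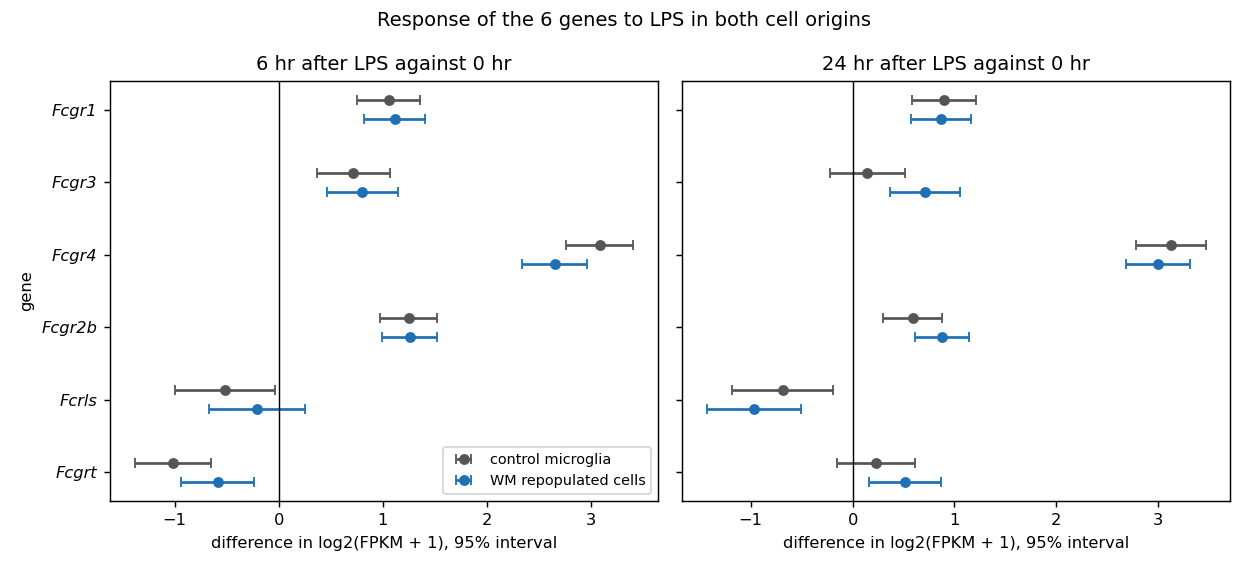
Difference in log2(FPKM + 1) between 6 hr (left) or 24 hr (right) after LPS and 0 hr (horizontal axis) for each gene, with points for control microglia (grey) and WM repopulated cells (blue) and bars for the 95% interval of the limma fit. Fcgr4 stands at 2.65 to 3.12 in both panels, and Fcgrt lies below 0 at 6 hr and above 0 at 24 hr.

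The markers of other cells moved at the same times. The summed level of all 7 monocyte markers was 104 to 337 FPKM at 0 hr, 1265 to 2479 FPKM at 6 hr and 441 to 563 FPKM at 24 hr in controls, and 126 to 399, 1259 to 3435 and 132 to 689 FPKM in WM cells, none of the 7 being at 0 in every library. In controls the 24 hr libraries still lay above all those at 0 hr, while in WM cells those times overlapped. The 8 neutrophil markers, also all detected, summed to 1783 to 10582 FPKM at 0 hr, 432 to 10083 FPKM at 6 hr and 3140 to 15265 FPKM at 24 hr. The 9 microglial markers summed to 19643 to 23527 FPKM at 0 hr, 6080 to 8653 FPKM at 6 hr and 9875 to 14043 FPKM at 24 hr. Choroid plexus markers summed to 76.5 to 222, 99.8 to 1372 and 36.3 to 55.9 FPKM in controls, in the same order. In WM cells they summed to 283 to 740, 162 to 610 and 12.2 to 32.6 FPKM. B cell markers summed to 46.6 to 56.7, 4.999 to 13.3 and 26.8 to 35.5 FPKM in controls. In WM cells those sums were 9.66 to 19.5, 2.60 to 9.46 and 6.38 to 9.01 FPKM. WM replicate 1 at 6 hr held the highest neutrophil sum at that time, 10083 FPKM against 432 to 825 in the other 3, the highest monocyte sum, 3435 FPKM, and the highest Fcgr4, Fcgr1 and Fcgr2b of its group, but the lowest Fcgr3 and Fcgrt. Without it the rise of Fcgr4 at 6 hr in WM cells was 2.57 on the log2 scale. The part of other cells in these responses was not tested.

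The difference between both responses, tested as an interaction, was not shown for any of the 6 genes. None passed at 6 hr, where 0.0237% of all genes did, and none at 24 hr, where 0.0867% did (limma, adjusted p under 0.05). At an unadjusted p under 0.05 the count was 0 of 6 at 6 hr and 1 of 6 at 24 hr, against 913 and 1105 of all 12684 genes. That 1 gene was Fcgr3, whose 24 hr response was larger in WM cells by 0.56 on the log2 scale (95% interval 0.06 to 1.07, limma adjusted p = 0.499). For Fcgr4 the 6 hr response differed by -0.43 (-0.89 to 0.02), WM minus control, and the 24 hr response by -0.13 (-0.59 to 0.34).

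Between WM repopulated cells and control microglia, Fcgr4 passed the test as higher in WM cells at 0 and 24 hr, and Fcrls passed as lower at 24 hr. Without LPS, 1 of 6 genes passed the test as higher, where 0.717% of all genes did. That gene was Fcgr4, at 34.6 to 46.6 FPKM in WM cells and 21.1 to 22.9 FPKM in controls. The groups did not overlap, and the difference was 1.79-fold (log2 difference 0.84 ± 0.16, limma adjusted p = 0.0103). With 1 library left out in turn the difference was 0.77 to 0.91, and the call was lost only without control replicate 1, at 0.80 with adjusted p = 0.0509 by limma. Fcrls had a difference of -0.85 (95% interval -1.35 to -0.35, limma adjusted p = 0.0967) at 0 hr, and its WM libraries lay at 901 to 1034 FPKM against 1613 to 1978 in controls, without overlap. Fcgr1 and Fcgrt did not overlap between the groups either and did not pass, with differences of 0.32 (0.00 to 0.64) and -0.36 (-0.74 to 0.03). Fcgr3 and Fcgr2b overlapped, with differences of -0.05 (-0.42 to 0.32) and 0.05 (-0.23 to 0.34).

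At 6 hr after LPS none of the 6 genes passed between WM cells and controls (limma), where 0.323% of all genes did, and 3 of 6 had an unadjusted p under 0.05, as did 1164 of all 12684 genes. These were Fcgr1 at 0.38 (95% interval 0.10 to 0.66), Fcgr4 at 0.40 (0.11 to 0.70) and Fcrls at -0.54 (-0.98 to -0.10), each with overlapping groups. At 24 hr 2 of 6 passed, where 3.97% of all genes did. Fcgr4 lay at 255 to 377 FPKM in WM cells and 183 to 231 FPKM in controls, without overlap, and was 1.64-fold higher (log2 difference 0.71 ± 0.15, limma adjusted p = 0.00827). Fcrls lay at 277 to 710 FPKM in WM cells and 836 to 1472 FPKM in controls, without overlap, and was lower, with a log2 difference of -1.13 ± 0.22 (adjusted p = 0.00440). Fcgr3 at 0.51 (0.17 to 0.85) and Fcgr2b at 0.34 (0.07 to 0.60) did not pass, both with overlap, with adjusted p of 0.0861 and 0.152 by limma. Fcgr3 passed without WM replicate 4 at 24 hr, at 0.63 with adjusted p = 0.0415. Fcgr1 did not overlap and did not pass, at 0.29 (-0.01 to 0.58). With only the 2 groups compared in the fit, Fcrls did not pass (adjusted p = 0.0712). The neutrophil markers summed to less in WM cells at 24 hr, 3140 to 7127 FPKM against 6314 to 15265 FPKM in controls, with overlap. Other marker sums separated WM cells from controls at that time without overlap. The 7 markers of border-associated macrophages summed to 21.8 to 45.3 FPKM in WM cells and 62.8 to 81.3 FPKM in controls, and the 5 choroid plexus markers to 12.2 to 32.6 and 36.3 to 55.9 FPKM. B cell markers, of which 3 of 4 are listed, summed to 6.38 to 9.01 FPKM in WM cells and 26.8 to 35.5 FPKM in controls at 24 hr, and to 9.66 to 19.5 and 46.6 to 56.7 FPKM at 0 hr. At 0 hr the choroid plexus sum was 283 to 740 FPKM in WM cells and 76.5 to 222 FPKM in controls, and the sums of astrocyte and endothelial markers were lower in WM cells (37.3 to 51.8 against 55.1 to 61.2 FPKM, and 4.75 to 7.45 against 9.13 to 13.5 FPKM). The part of these cells in the differences between WM cells and controls was not tested.

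**Figure D3:**
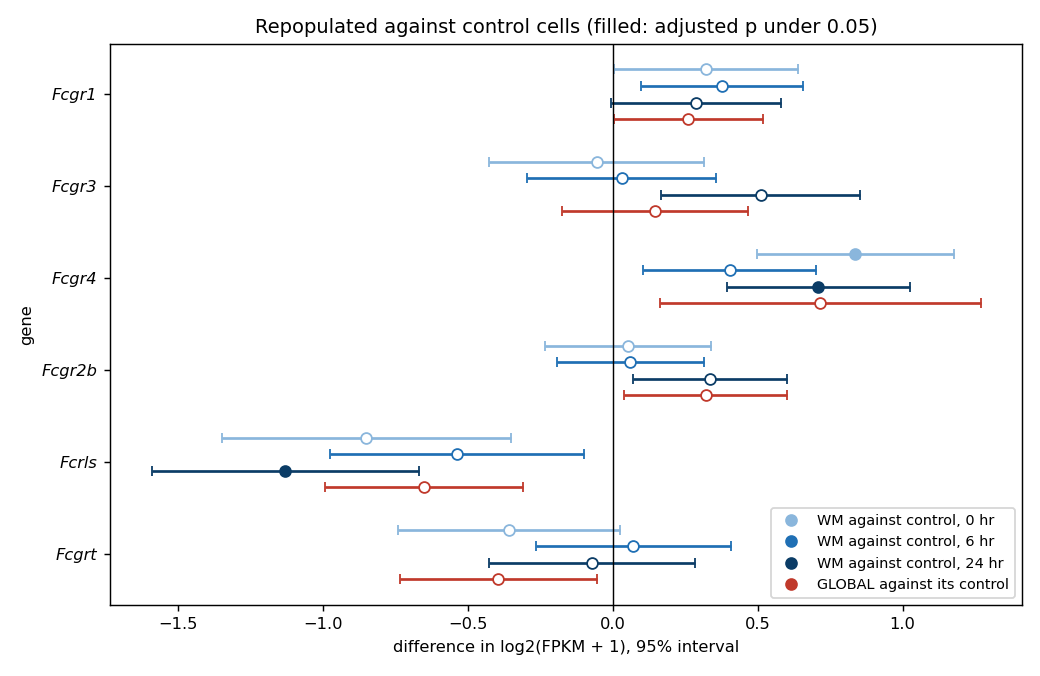
Difference in log2(FPKM + 1) between repopulated and control cells (horizontal axis) for each gene, for WM cells at 0, 6 and 24 hr after LPS (blue shades) and for GLOBAL repopulated cells (red), with bars for the 95% interval of the limma fit and filled points for an adjusted p under 0.05. Filled points are Fcgr4 at 0 hr (0.84) and 24 hr (0.71) and Fcrls at 24 hr (-1.13).

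GLOBAL repopulated cells were set against their own controls in a separate table. None of the 6 genes passed the test, and 0% of all 16651 genes tested did; at an unadjusted p under 0.05 limma gave 5 of the 6 genes and 1504 of all genes. Fcrls was listed at 1028, 965, 1119 and 1216 FPKM in controls and at 762, 588 and 721 FPKM in GLOBAL cells, without overlap, a difference of -0.65 (95% interval -0.99 to -0.31, limma adjusted p = 0.275). Fcgr4 was listed at 18.4, 14.1, 12.5 and 10.4 FPKM in controls and at 16.5, 21.1 and 34.3 FPKM in GLOBAL cells, with overlap, a difference of 0.72 (0.16 to 1.27, adjusted p = 0.469). Fcgr1 lay at 103 to 113 FPKM in controls and 126 to 133 FPKM in GLOBAL cells, and Fcgr2b at 265 to 310 and 335 to 376 FPKM, both without overlap. Their differences were 0.26 (0.01 to 0.52) and 0.32 (0.04 to 0.60). Fcgr3 lay at 597 to 773 and 781 to 823 FPKM, a difference of 0.14 (-0.18 to 0.47), and Fcgrt at 61.2 to 87.8 and 50.6 to 63.8 FPKM, a difference of -0.39 (-0.73 to -0.05). Control replicates 1 and 2 held neutrophil markers at 22615 and 13762 FPKM, summed, against 1267 to 4573 in the other 5 libraries. Further marker sums were lower in GLOBAL cells without overlap. Those of border-associated macrophages were 18.3 to 31.7 FPKM against 32.1 to 54.99 in controls, of endothelium 10.03 to 15.96 against 17.1 to 25.3, and of astrocytes 22.8 to 26.5 against 28.7 to 30.4. Those of B cells were 12.9 to 14.8 FPKM against 16.4 to 33.4, and of mast cells, with 3 of 4 markers listed, 2.29 to 4.09 against 4.98 to 8.24. Their part in the differences was not tested. Without control replicates 1 and 2, none of the 6 genes passed (limma), and the differences of Fcrls and Fcgr4 were -0.77 and 0.95. With 1 library left out in turn, that of Fcgr4 was 0.44 to 0.94, the lowest without GLOBAL replicate 3, and that of Fcgr3 was 0.06 to 0.18, the lowest without control replicate 3.

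**Figure D4:**
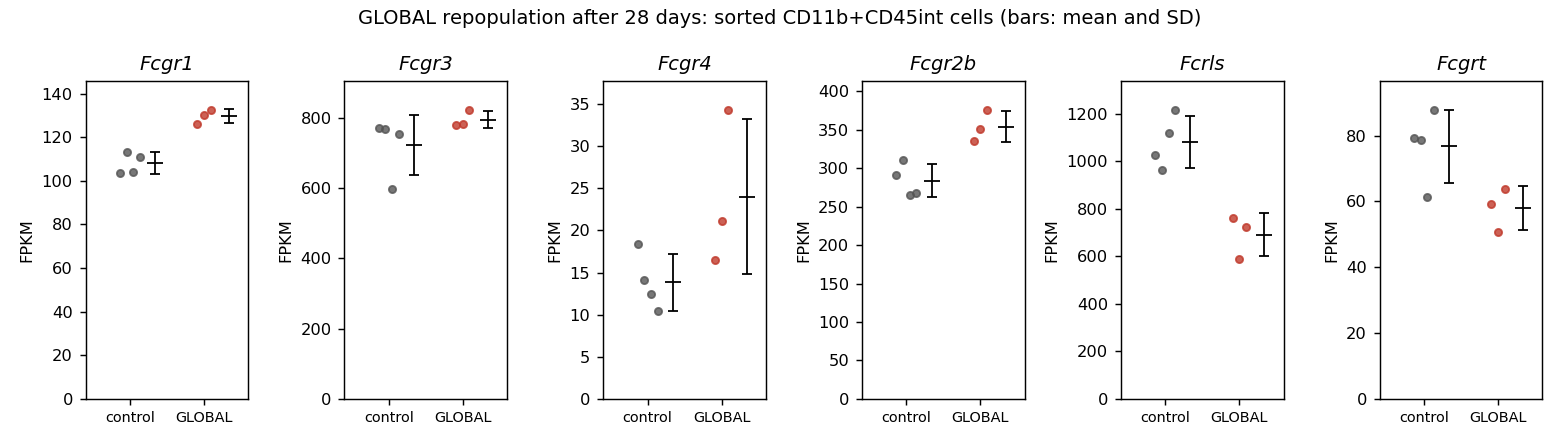
FPKM of each gene (vertical axis, linear, from 0) in the 4 control (grey) and 3 GLOBAL repopulated (red) libraries; each point is 1 library, and the bars give the mean and SD. Fcrls is lower in all 3 GLOBAL libraries (588 to 762 FPKM) than in the controls (965 to 1216 FPKM).

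In SVZ tissue the levels of Fcgr3, Fcgr2b and Fcrls fell after PLX3397, and Fcgrt did not pass the test. Fcgr3 was listed at 14.04, 17.5, 18.5, 16.6 and 18.8 FPKM in controls, at 0, 0.139, 0.0718, 0.0773 and 0.134 FPKM after 14 days of PLX3397, and at 0.824, 0.628, 0.509, 1.53 and 1.12 FPKM after 5 days of recovery. Fcrls was listed at 17.8, 17.3, 19.9, 18.5 and 24.5 FPKM in controls, at 0 in 3 libraries and 0.0488 and 0.182 in the others after PLX3397, and at 0.933, 1.46, 0.807, 0.831 and 0.573 FPKM in recovery. Fcgr2b was listed at 2.65, 3.11, 2.48, 2.12 and 2.99 FPKM in controls, at 0.144, 0.0609, 0, 0.135 and 0.117 FPKM after PLX3397, and at 0.480, 0.549, 0.0742, 0.401 and 0.164 FPKM in recovery. For these genes the controls did not overlap either other group, and fewer microglia and less RNA per cell cannot be told apart in tissue. The values after PLX3397 rest on 0 to 2 estimated reads per library for each of the 3 genes.

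After PLX3397, 3 of the 4 genes that passed the filter on low values were lower than in controls, where 1.21% of all 14151 genes tested were. These 3 passed the filter through the control libraries, where they are high, so a difference was built into their count and nothing is read from it against that share. Fcgr3 fell by 4.05 on the log2(FPKM + 1) scale (SE 0.13, limma adjusted p = 7.45e-13), Fcrls fell by 4.29 (SE 0.12, adjusted p = 3.00e-13 by limma) and Fcgr2b fell by 1.74 (SE 0.12, adjusted p = 2.32e-08 by limma). The added 1 makes these sizes smaller than the ratio of the FPKM values, since the means after PLX3397 were 0.495%, 0.236% and 3.43% of the control means. In recovery Fcgr3, Fcrls and Fcgr2b were lower than in controls, where 1.09% of all genes were, and the same limit holds for that count. The sizes were differences of -3.25, -3.43 and -1.47 on that scale and means at 5.40%, 4.70% and 12.5% of control. Between recovery and PLX3397, 2 genes passed as higher, where 0.29% of all genes did. Both enter this comparison through the control libraries, which it does not use, and with only the groups compared the filter left 1 of the 6 genes to test and 0 were called (limma), so nothing is read from the count. Fcgr3 was higher by 0.80 (95% interval 0.53 to 1.07, limma adjusted p = 0.00745) and Fcrls by 0.86 (0.61 to 1.12, adjusted p = 0.00238), both without overlap. With 0.1 in place of 1 added to the FPKM these differences were 2.44 and 2.88, and those after PLX3397 against controls were -6.60 for Fcgr3, -7.20 for Fcrls and -3.91 for Fcgr2b, with -2.83 for Fcgr2b in recovery against controls, so the sizes depend on the value added. The 9 microglial markers, summed, stood at 190 to 256 FPKM in controls, 16.04 to 19.5 after PLX3397 and 25.2 to 31.6 in recovery, means of 7.89% and 12.5% of control. Border-associated macrophage markers, of which 5 of 7 are listed, summed to 3.90 to 7.72 FPKM in controls, 1.21 to 2.49 after PLX3397 and 1.38 to 3.14 in recovery, with the controls above both other groups. The 1 monocyte marker listed of 7 lay at 1.04 to 1.58 FPKM in controls, 0.754 to 1.03 after PLX3397 and 0.561 to 1.13 in recovery. Neutrophil markers, of which 2 of 8 are listed, summed to 0.558 to 3.17, 0 to 4.22 and 1.71 to 15.01 FPKM in these groups. Their means were 1.66, 1.44 and 7.75 FPKM, with overlap. Astrocyte markers summed to 1037 to 1485, 1320 to 1444 and 1450 to 2283 FPKM, with recovery above PLX3397 without overlap. The part of each cell type in these differences was not tested.

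Fcgr1 was listed at 0.834, 0.844, 0.838, 0.9995 and 1.01 FPKM in SVZ controls and was not tested, because it did not reach 1 FPKM in 3 libraries. After PLX3397 it was listed at 0 in 3 libraries and at 0.0808 and 0.0701 FPKM in the others, and in recovery at 0.287, 0.328, 0, 0.1996 and 0.147 FPKM. Its control libraries did not overlap either other group. With no filter on low values its log2 differences from controls were -0.89 after PLX3397 and -0.68 in recovery, with limma adjusted p of 1.01e-06 and 3.23e-05. Fcgrt was listed at 31.4, 21.3, 18.8, 20.2 and 20.3 FPKM in controls, at 14.3, 18.8, 18.7, 17.6 and 22.6 FPKM after PLX3397, and at 24.2, 18.8, 19.8, 27.2 and 30.3 FPKM in recovery. All 3 groups overlapped, and the differences from controls were -0.26 (95% interval -0.58 to 0.06) after PLX3397 and 0.10 (-0.22 to 0.42) in recovery. The highest control value was that of replicate 1, the library with the choroid plexus markers, and without it the differences were -0.14 and 0.22. Between recovery and PLX3397 Fcgrt differed by 0.36 (0.04 to 0.68, limma adjusted p = 0.269).

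**Figure D5:**
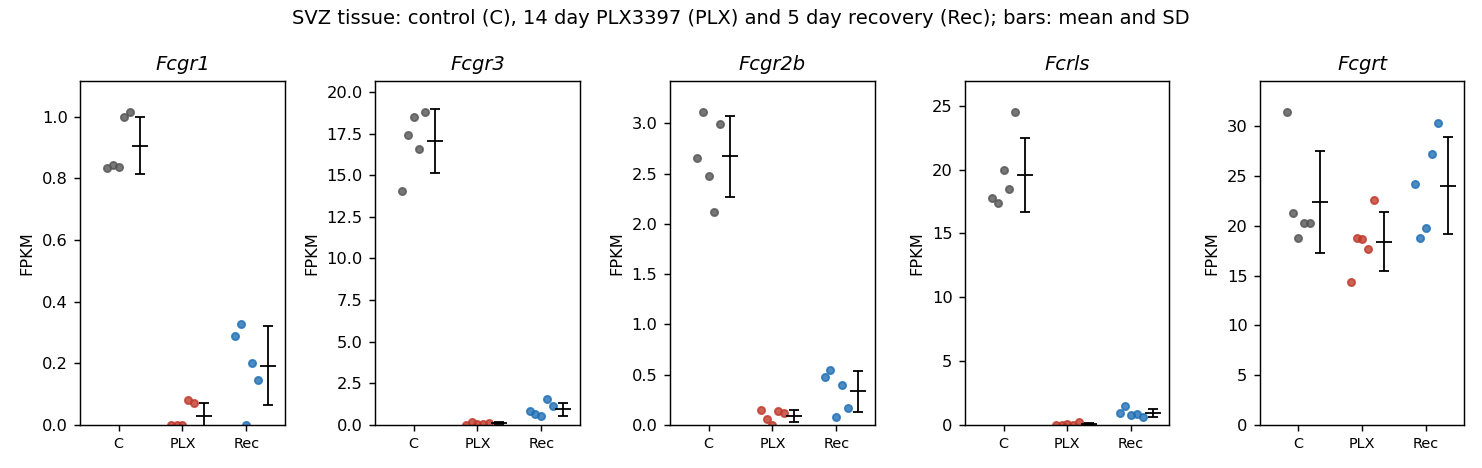
FPKM of the 5 genes listed for SVZ tissue (vertical axis, linear, from 0) in control (C, grey), 14 day PLX3397 (PLX, red) and 5 day recovery (Rec, blue) libraries; each point is 1 of 5 libraries per group, and the bars give the mean and SD. Fcgr3 falls from 14.04 to 18.8 FPKM in controls to at most 0.139 after PLX3397, and Fcgrt overlaps between all groups.

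The partner chains of the receptors were read beside them. In SVZ tissue 3 of the 4 chains were listed and tested. Fcer1g stood at 39.0 to 47.7 FPKM in controls, 0 to 0.828 after PLX3397 and 3.39 to 5.81 in recovery, and Tyrobp, an adaptor of the same kind, at 45.5 to 78.9, 0 to 0.683 and 3.27 to 6.46 FPKM. Both fell against controls in each group and rose from PLX3397 to recovery, by 1.96 and 2.17 on the log2 scale (limma adjusted p = 1.38e-05 and 1.16e-05). Both stood below 1 FPKM in every library after PLX3397 and entered the tests through the other groups, where they are higher. For PLX3397 against controls these calls carry the same limit as those of Fcgr3 and Fcrls. Both were above 1 FPKM in every recovery library, so their test against PLX3397 did not need the controls. It still rests on genes admitted through the group where they are high. B2m, the partner of Fcgrt, fell by 0.62 after PLX3397 (adjusted p = 7.60e-04 by limma) and by 0.53 in recovery (adjusted p = 0.00416), from 118 to 169 FPKM in controls to 84.4 to 104 and 89.4 to 105 FPKM. In sorted cells Fcer1g rose by 0.48 at 6 hr in both origins (limma adjusted p = 0.00953 in controls and 0.00854 in WM cells), from 2755 to 3278 FPKM to 3659 to 5333 FPKM in controls. Tyrobp fell at 6 hr by 0.39 in controls and 0.47 in WM cells (adjusted p = 0.0120 and 0.00289 by limma), and by 0.36 at 24 hr in WM cells (adjusted p = 0.0352). B2m and Ms4a2, the beta chain of the immunoglobulin E receptor, did not pass for any LPS time, and none of the chains passed between WM cells or GLOBAL cells and their controls.

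The 35 genes of Fc receptor signalling on the list were all tested in sorted cells. At 6 hr 13 were higher and 6 lower in controls, with a median difference of 0.11 against 0.01 over all genes, and 9 were higher and 7 lower in WM cells, with a median of -0.02 against 0.00. Over all genes 42.5% passed in controls and 38.8% in WM cells at that time. In controls the 2 lowest adjusted p values belonged to the Src-family kinase Fgr (3.39, limma adjusted p = 1.19e-08) and the adaptor Dok2 (2.96, 1.66e-06). In WM cells the 3 lowest belonged to the kinase Fyn (2.11, limma adjusted p = 1.84e-08), the actin-branching subunit Arpc2 (1.16, 3.33e-08) and Dok2 (2.87, 2.02e-06). None of the 35 passed the interaction at 6 or 24 hr (limma), where 0.0237% and 0.0867% of all genes did. A different response of these genes between the origins was thus not shown. At 24 hr 5 were higher and 4 lower in controls and 5 higher and 5 lower in WM cells, with medians of -0.04 and 0.01 against 0.01 and 0.02 over all genes, of which 21.3% and 18.8% passed. Between WM cells and controls, 1 of 35 passed as higher at 0 hr, where 0.717% of all genes did, and none passed at 6 or 24 hr (limma), where 0.323% and 3.97% did, so nothing is read from these counts. The gene was the adaptor Lat, at a mean of 6.19 FPKM against 1.39 (limma adjusted p = 0.00454). Lat is an adaptor of T cells and NK cells, and all 5 markers of those cells summed to 25.8 to 51.8 FPKM in WM cells and 7.80 to 24.04 FPKM in controls at 0 hr, without overlap; their part in the difference of Lat was not tested. In SVZ tissue 10 of 27 tested were lower after PLX3397 and 9 in recovery, with medians of -0.13 and -0.27 against 0.01 and -0.01 over all genes, of which 1.21% and 1.09% were lower. Some of them passed the filter through the controls, as Ptpn6 did at 3.72 to 5.62 FPKM against 0.304 to 0.828 FPKM after PLX3397, so nothing is read from these counts against those shares. The phosphatases Ptpn6 and Inpp5d, which act downstream of the inhibitory receptor, fell by 1.89 and 1.14 after PLX3397 (adjusted p = 1.65e-07 and 9.82e-07 by limma). None of the 35 passed in GLOBAL cells.

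Of 11 other Fc receptor and Fc receptor-like genes, 6 are listed and 4 were tested in the WM table. Fcrl1, which B cells carry, differed at 6 hr by -2.45 in controls (limma adjusted p = 2.63e-06) and by -1.30 in WM cells (adjusted p = 0.00248), and Fcrlb rose by 1.35 and 1.34 (adjusted p = 0.00461 and 0.00451 by limma). The medians of the 4 were 0.48 and 0.38 at 6 hr, and none passed between WM cells and controls. Of 13 immunoglobulin chains, 4 were tested there, and 2, Ighm and Ighd, fell at 6 hr and at 24 hr in both origins. With 42.5% and 38.8% of all genes called at 6 hr and 21.3% and 18.8% at 24 hr, in controls and in WM cells, nothing is read from a count of 2 of 4. Ighd, the chain of immunoglobulin D, was also lower in WM cells than in controls at 0 hr and 24 hr (-1.25 and -1.32, limma adjusted p = 0.0277 and 0.00497), where the other 3 did not pass. Ighm, the chain of immunoglobulin M, had a mean of 433 FPKM in controls at 0 hr and 36.3 at 6 hr, and fell by 3.59 on the log2 scale (limma adjusted p = 5.95e-10). The B cell markers fell at the same time, to 4.999 to 13.3 FPKM in controls at 6 hr, and their part in the change of Fcrl1 and Ighm was not tested.

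The balance of activating to inhibitory receptor genes is given as a ratio of FPKM values, with no test. Short reads may be split between Fcgr2b and Fcgr3, so the ratio of these genes is uncertain. Fcgr3 stood at 6.28 ± 0.19 times Fcgr2b (SD, n = 3) in controls at 0 hr, 4.38 ± 0.65 (n = 5) at 6 hr and 4.62 ± 0.47 (n = 4) at 24 hr, and at 5.86 ± 0.62, 4.32 ± 0.84 and 5.25 ± 0.90 (n = 4 each) in WM cells. In controls the 0 hr libraries lay above all LPS libraries, and in WM cells the times overlapped. The ratio of Fcgr4 to Fcgr2b went the other way, from 0.0645 ± 0.0077 in controls at 0 hr to 0.241 ± 0.043 at 6 hr and 0.393 ± 0.087 at 24 hr, and from 0.113 ± 0.0039 to 0.304 ± 0.032 and 0.501 ± 0.021 in WM cells. Fcgr4 made up 0.957% ± 0.10 of the summed FPKM of Fcgr1, Fcgr3 and Fcgr4 in controls at 0 hr and 1.76% ± 0.15 in WM cells, and 7.11% ± 1.0 and 8.16% ± 0.87 at 24 hr. In all 6 groups of this table Fcgr3 had the highest mean of the 6 genes. Fcrls came next, except in WM cells at 6 and 24 hr, where the mean of Fcgr2b was 860 and 663 FPKM and that of Fcrls 846 and 526 FPKM, with overlapping libraries. In the GLOBAL controls Fcrls stood above Fcgr3, with means of 1082 and 723 FPKM. There Fcgr3 stood at 2.55 ± 0.24 times Fcgr2b (SD, n = 4), and in GLOBAL cells at 2.25 ± 0.072 times (n = 3). Both means lay below all those given above for the other controls and WM cells.

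Over the 24 libraries of the WM table, the genes most like each member were named by the Pearson correlation of log2(FPKM + 1). It takes in the differences between LPS times and cell origins as well as those within groups. Fcgr4 was most like Cd244 (r = 0.977), AI607873 (0.965) and Treml2 (0.961), and Fcgr1 most like Rab32 (0.944), Arhgap24 (0.937) and Kif2c (0.930). For Fcgr2b these were Ms4a6d (0.965), Ifi35 (0.953) and C5ar1 (0.949), and for Fcgr3 they were Gbp2 (0.903), Klf13 (0.892) and Rnf4 (0.891). Fcgrt was most like Reep5 (0.892), Klf11 (0.885) and Hfe (0.881), and Fcrls most like Crybb1 (0.854), Ecscr (0.820) and Bhlhb9 (0.816). Once group means were taken off, the correlation with the first of these genes was 0.364 for Fcgr4, 0.539 for Fcgr1, 0.4997 for Fcgr2b, 0.632 for Fcgr3, 0.384 for Fcgrt and 0.842 for Fcrls. These lay below the correlations over all libraries, by little for Fcrls only. Among the members themselves, Fcgr1 and Fcgr4 had the highest correlation, 0.922 over all libraries and 0.564 within groups, and Fcgr3 and Fcrls had the lowest within groups, at -0.450.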

How the data were processed

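RNA from SVZ tissue and from sorted CD11b+CD45int cells was sequenced in 46 libraries. The deposited values are FPKM per gene, normalised by the authors for library size and gene length. The submitters' processing notes name STAR, featureCounts, edgeR, limma and build mm10. The library protocol in the labels differs from the one in the study's methods, and which was used is not settled here. Read counts were not analysed here. Reads per library were recovered from the steps of low FPKM values at GENCODE exon lengths. Reads per member value are estimates at a gene length fitted to these same values, which for 5 of the 6 genes is below the GENCODE exon length. Columns of per-sample values without a mapped sample numbered 0.

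Each table was fitted on its own, with all its groups, by limma (version 3.58.1, R 4.3.3) on log2(FPKM + 1) with a variance trend. Genes at 1 FPKM or more in at least 3 libraries were tested, which left 14151, 12684 and 16651 genes in the SVZ, WM and GLOBAL tables. Two-sided p-values were adjusted by Benjamini-Hochberg over all genes tested, with a threshold of 0.05 and intervals of 95%. Differences on this scale understate the change of low genes. The named genes were the 6 members, the partner chains, up to 3 called signalling genes with the lowest adjusted p per comparison, and the 3 genes most correlated with each member. Of these, 1 signalling gene is not reported here. Other genes of the lists named in the text (Fcrl1, Fcrlb, Ighm, Ighd) were chosen after their values were seen. The members and lists were chosen with earlier results of these data known. The fit was tested on simulated data. The alternatives were a pseudocount of 0.1, no filter on low values, quantile normalisation, no trend, the replicate number as a block, only the groups compared, and each replicate left out in turn. Leaving out 2 libraries together was chosen after seeing the data.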

Additional observations from a re-analysis of the deposited data

Results flagged for a closer look

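Within each group of 4 or 5 libraries, the highest and the lowest value of each gene were compared with the rest of the group by Dixon's ratio of the gap to the range, in 51 groups. Chance marks about 1 in 20 such groups, and 3 values were marked. Fcgrt in SVZ control replicate 1 was listed at 31.4 FPKM against 18.8 to 21.3 FPKM in the other 4 controls, a gap of 0.806 of the range, in the library that also carried 21648 FPKM of choroid plexus markers. Fcrls in SVZ tissue after PLX3397 was listed at 0.182 FPKM in replicate 5 against 0 to 0.0488 FPKM in the others, a gap of 0.732 of the range that rests on 2 reads. Fcgr3 in GLOBAL control replicate 3 was listed at 597 FPKM against 754 to 773 FPKM in the other 3 controls, a gap of 0.894 of the range.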

How the results depend on the processing

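Over the 6 genes, 1347 fold changes were computed under the alternatives, of which 1306 kept both their direction and their side of the threshold, 32 lost their call, 9 gained one, and none that was called changed sign; 28 that were not called had the other sign. With only the groups compared in the fit, the count of members called was 0 between SVZ recovery and PLX3397, where the filter left 1 member to test, 2 between WM cells and controls at 0 hr and 1 at 24 hr. With both libraries of low agreement left out, it was 2 between WM cells and controls at 0 hr. The added member at 0 hr was Fcrls in both cases (limma adjusted p = 0.00182 and 0.0424). With 1 replicate left out in turn, the count was 0 to 1 for WM cells against controls at 0 hr and 1 to 3 for WM cells at 24 against 6 hr. No other count moved by more than 1.5 times, and the cause of these changes was not tested. The choice of the 2 libraries of low agreement, and of 2 GLOBAL controls high in neutrophil markers, was made after seeing the data.

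Whether the replicate numbers pair the libraries cannot be decided from correlations of this size. Same-numbered libraries deviated from their group means with a median correlation of 0.054 over 15 pairs in the SVZ table (-0.15 to 0.49), -0.0011 over 55 pairs in the WM table (-0.19 to 0.27) and 0.10 over 3 pairs in the GLOBAL table (0.056 to 0.14). For libraries of different numbers the medians were -0.0071, -0.0037 and -0.041. With the replicate block the members called were 3 in place of 4 in controls at 24 against 0 hr, where Fcrls had an adjusted p of 0.0542, and 2 in place of 3 in WM cells at 24 against 6 hr, where Fcgr2b had 0.0740; the other counts were the same by limma. Depth limits the low values in SVZ tissue, where Fcgr3 rests on 0 to 2 reads per library after PLX3397.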
